A study of Mus musculus with 3 samples.

Results

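The 6 interferon-induced GTPase genes Gbp2, Gbp3, Gbp5, Irgm1, Irgm2 and Igtp were examined in a map of histone H3 lysine 4 monomethylation (H3K4me1) from cytokine-treated mouse islets. The rule uses positions and no measured height, but the genes were chosen with earlier results of these data known. A region of the map belonged to a gene if it overlapped the gene or lay within 20 kb of any of its annotated transcription start sites (TSS), and regions between the Gbp genes on chromosome 3 were added. By this rule 20 of the 65709 enriched regions belonged to the set, 17 of them at 1 or more of the 6 genes and 3 only between the Gbp genes.

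The map comes from 1 chromatin immunoprecipitation sequencing (ChIP-seq) library. Islets of mice, named as strain CD1 aged 8 to 12 weeks in the sample labels and as ICR, with a narrower age range, in the study's methods, were cultured for 4 days with a cytokine mix that held IFNγ at 1.6 ng/ml, IL-1β at 0.25 ng/ml and TNFα at 0.16 ng/ml. No transgene or mutation was named for them. Islets of several mice were used, and DNA from separate immunoprecipitations was pooled before sequencing. Untreated islets and the RNA-seq of the study are not analysed here, so no value below is a response to the cytokines. There was no replicate library, and no difference between genes below has a replicate check. The list gives only the position of each region, on a grid of 200 bp steps, so the height of the signal and the read depth are unknown. Islets hold several cell types, and a region cannot be assigned to beta cells or to another cell type.

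Guanylate-binding proteins (Gbp) and immunity-related GTPases (Irg) are large GTP-hydrolysing proteins that cells make in response to IFNγ. They assemble on membranes, including the vacuoles in which bacteria and parasites grow, and take part in cell-autonomous defence. Promoters of genes that respond to interferons often hold short sequences known as gamma-activated sites (GAS) and interferon-stimulated response elements (ISRE), the second of which are bound by interferon regulatory factors. H3K4me1 marks chromatin of active and poised promoters and enhancers, and often dips directly at strongly used start sites, where trimethylation of the same residue takes over.

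The sequence around the start of each gene was read first to show where GAS and ISRE letters lie and how far they are from the H3K4me1 regions. Each line gives 230 bases before the most upstream TSS of a protein-coding transcript and 20 bases from that TSS on, 5′ to 3′ along the gene, from the mm9 genome. Capitals mark GAS matches (TTCNNNGAA, a palindrome) and ISRE cores, searched on both strands as 2 copies of GAAA set 2 bases of any kind apart.
Gbp5 (chr3:142159634-142159883, plus strand): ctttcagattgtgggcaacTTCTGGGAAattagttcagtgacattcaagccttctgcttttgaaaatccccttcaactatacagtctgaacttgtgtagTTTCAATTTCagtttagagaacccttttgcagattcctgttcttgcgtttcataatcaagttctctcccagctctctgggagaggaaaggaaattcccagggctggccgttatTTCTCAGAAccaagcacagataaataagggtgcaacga
Gbp3 (chr3:142222786-142223035, plus strand): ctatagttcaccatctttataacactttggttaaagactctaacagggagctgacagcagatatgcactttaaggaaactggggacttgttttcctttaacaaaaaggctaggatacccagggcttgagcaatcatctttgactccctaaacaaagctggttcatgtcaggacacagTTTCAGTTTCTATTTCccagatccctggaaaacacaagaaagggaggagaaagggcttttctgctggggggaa
Gbp2 (chr3:142283336-142283585, plus strand): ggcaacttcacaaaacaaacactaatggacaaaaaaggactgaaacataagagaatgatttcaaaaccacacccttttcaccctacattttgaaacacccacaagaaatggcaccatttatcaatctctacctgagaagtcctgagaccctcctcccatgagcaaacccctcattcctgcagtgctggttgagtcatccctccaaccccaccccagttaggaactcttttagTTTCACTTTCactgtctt
Irgm1 (chr11:48684903-48685152, minus strand): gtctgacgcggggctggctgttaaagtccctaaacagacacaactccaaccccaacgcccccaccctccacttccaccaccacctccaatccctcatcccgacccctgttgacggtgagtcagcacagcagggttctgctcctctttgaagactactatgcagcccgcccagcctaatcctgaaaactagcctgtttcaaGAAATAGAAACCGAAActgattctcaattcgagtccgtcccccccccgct
Igtp (chr11:58012828-58013077, plus strand): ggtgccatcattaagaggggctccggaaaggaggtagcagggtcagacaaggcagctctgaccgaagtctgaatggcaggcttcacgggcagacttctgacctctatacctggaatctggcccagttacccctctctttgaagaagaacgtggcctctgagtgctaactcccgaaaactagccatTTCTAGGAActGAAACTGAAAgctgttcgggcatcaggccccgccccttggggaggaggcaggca
Irgm2 (chr11:58028300-58028549, plus strand): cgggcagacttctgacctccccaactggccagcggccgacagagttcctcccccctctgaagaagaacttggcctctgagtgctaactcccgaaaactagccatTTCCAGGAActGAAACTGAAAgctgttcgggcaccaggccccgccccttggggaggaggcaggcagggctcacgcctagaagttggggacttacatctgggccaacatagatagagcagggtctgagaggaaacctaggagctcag

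All 6 of these windows held an ISRE core, against 3.33% of the windows of 22345 protein-coding genes cut in the same way. In Gbp3 and Irgm1 a pair of cores overlapped, at 53 to 38 and at 30 to 15 bases before the TSS. The core of Gbp2 lay 2 to 11 bases past the TSS and that of Gbp5 131 to 122 bases before it. GAS matches were present in 3 of the 6 windows, those of Gbp5, Irgm2 and Igtp, against 6.75% of all windows, and these 3 held both motifs, against 0.425%.

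Igtp and Irgm2 carried the same arrangement, a GAS followed after 2 bases by an ISRE core, at 45 to 25 bases before the TSS in Igtp and 126 to 106 bases before it in Irgm2. A GAS and an ISRE core at most 20 bp apart occurred in 0.112% of the windows of protein-coding genes, 25 in all. Within a list of 29 GTPase genes of the family, 8 held such a pair, namely Irgm2, Igtp, Tgtp2, Gm12250, Iigp1, Gm4951, F830016B08Rik and Gm12185. Gm12250 is annotated as a pseudogene and is not among the 25 protein-coding windows. The windows of Igtp and Irgm2 aligned over 170 columns with 88.2% of them identical and a longest identical run of 38 bp, so the 2 arrangements lie in sequence that is itself alike. The other pairs of the 6 windows shared runs of at most 11 bp.

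The window used for these counts was set after the sequences had been seen, and the pairing of motifs within 20 bp was not planned beforehand. In a fixed window from 250 bp before to 50 bp after the most upstream annotated TSS, 5 of the 6 genes held an ISRE core, against 3.79% of 22350 protein-coding genes. Irgm1 was the exception, because its most upstream TSS belongs to a transcript that does not code for protein and lies 263 bp before the first coding one. GAS was again found at Gbp5, Irgm2 and Igtp, against 7.94%. An NF-kB motif, of interest because IL-1β and TNFα signal through NF-kB, was found at Gbp5 alone, 43 to 34 bases before the TSS, against 8.89% of promoters. The TATAAA letters were found at Gbp3 and Irgm1, against 13.4%. Both matches lay on the strand opposite to the gene, 215 to 210 bases before the most upstream TSS in Gbp3 and 159 to 154 in Irgm1. These matches are letters in a window and no measure of binding.

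**Figure D1:**
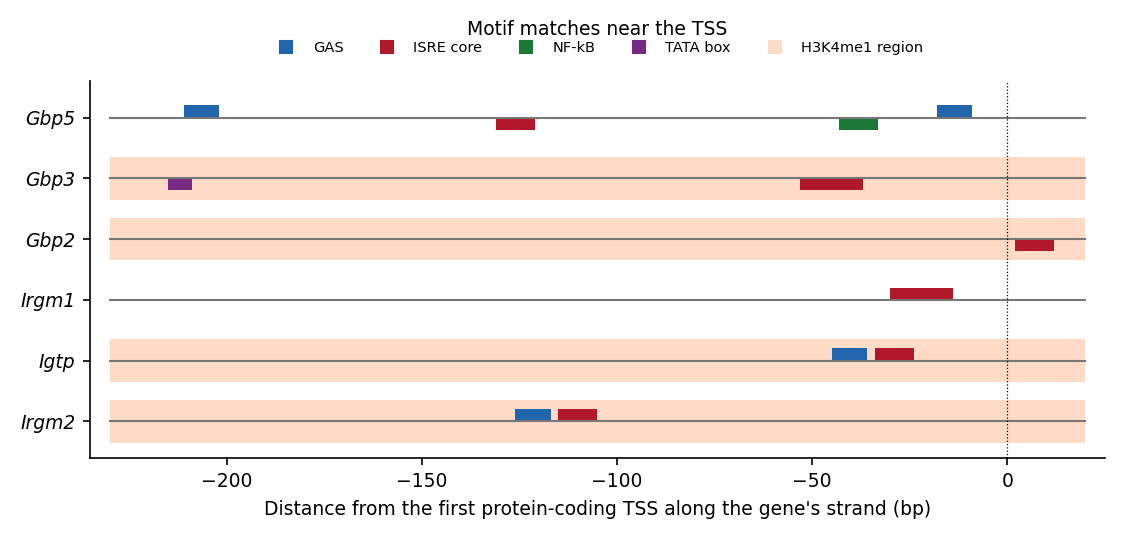
Positions of motif matches in the 6 promoter windows, in bp from the first protein-coding TSS along each gene's strand (x axis), with one line per gene. Blocks above and below the line are matches on the gene's strand and on the other strand, and shading marks H3K4me1 regions. The windows of Gbp2, Gbp3, Igtp and Irgm2 lie wholly inside a region, while those of Gbp5 and Irgm1 lie wholly outside.

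The base composition of the windows differed between the groups of genes. The Gbp windows had 42.4 to 43.6% G and C, with no CpG site in Gbp2 and Gbp3 and 3 in Gbp5. The windows of Irgm1, Igtp and Irgm2 had 55.6, 55.6 and 58.4% G and C, with 10, 7 and 7 CpG sites. All protein-coding windows had a median of 55.2% G and C and 9 CpG sites, and 6.75% of them had no CpG site.

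H3K4me1 regions lay at all 6 genes, as they did at 76.4% of the 22350 protein-coding genes, so that having a region does not set the 6 apart. A region covered at least 1 TSS of 4 of the 6 genes, Gbp2, Gbp3, Irgm2 and Igtp, against 39.1% of protein-coding genes. With the most upstream TSS alone the same 4 genes were covered, against 31.1%. Gbp5 and Irgm1 had no region over any of their TSS, with the nearest edge 664 and 216 bp upstream of the most upstream one. Counted by position, 13 of the 20 annotated TSS of the 6 genes were covered, 6 of them those of Gbp3 under 1 region, against 31.5% of the TSS of protein-coding genes, and within each of these genes either every TSS was covered or none was. When a region within 1 kb of a TSS counted as well, all 6 genes had one, against 56.4% of protein-coding genes.

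The number of regions per gene ran from 1 to 6. Gbp2 had 1, Gbp5 had 2, Gbp3 and Irgm1 had 3 each, and Igtp and Irgm2 had 6 each, of which 4 were shared between the last 2. The counts depend on the window. With 10 kb Irgm2 had 5, Igtp 3, Irgm1, Gbp3 and Gbp5 2 each, and Gbp2 1. With 50 kb Irgm1, Irgm2 and Igtp had 9 each, Gbp3 had 6, Gbp5 had 5 and Gbp2 had 1. Of all protein-coding genes, 15.3% had 6 or more regions and 48.7% had 3 or more, and the median was 2. The share of sequence within 20 kb of a TSS that lay in regions was 7.49% at Gbp2, 15.5% at Gbp5, 18.0% at Gbp3, 36.2% at Irgm1, 36.2% at Irgm2 and 43.0% at Igtp. Each of the 3 Irg genes was covered more than each of the 3 Gbp genes. The windows of Igtp and Irgm2, whose starts lie 15472 bp apart, overlap, so their shares are not separate measures. The order did not hold over the listed family. Its 11 Gbp genes had a median of 7.5%, against 5.27% for its 11 genes on chromosome 11 and 0.0% for its 3 on chromosome 18. With a window of 10 kb the shares were 15% at Gbp2, 29.3% at Gbp3 and 30.9% at Gbp5, against 34.5% at Irgm1, 39.9% at Igtp and 41.0% at Irgm2. With 50 kb they were 3.0% at Gbp2, 12.2% at Gbp5 and 13.2% at Gbp3, against 22.8% at Irgm2, 22.9% at Irgm1 and 23.2% at Igtp. With 20 kb the median over the 6 genes was 27.1%, and the median over all protein-coding genes was 7.02%, with quartiles of 0.782 and 17.0%. In that window Igtp was covered more than 96.8% of protein-coding genes and Irgm1 and Irgm2 more than 94.2%, whereas Gbp2 was covered more than 51.0%.

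**Figure D2:**
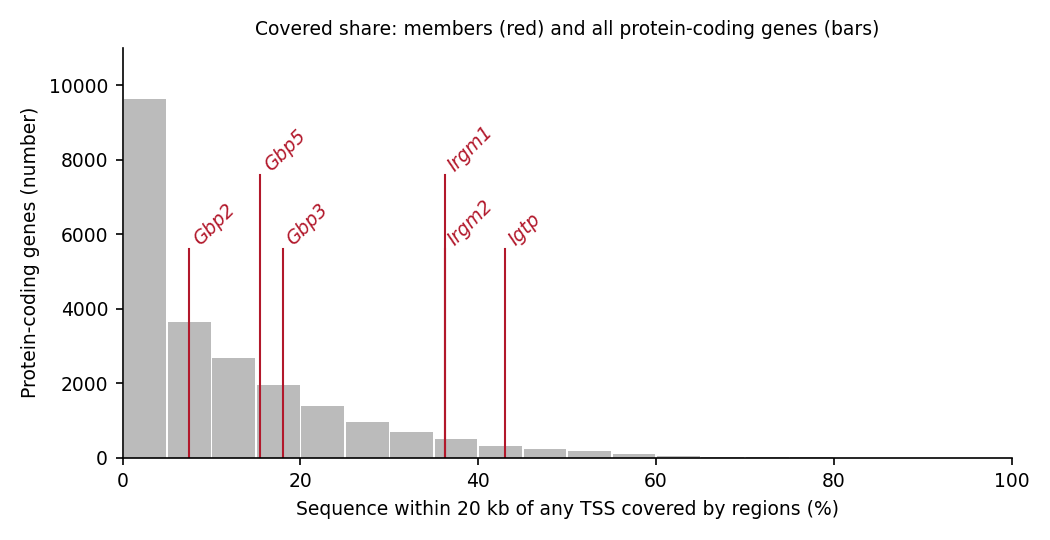
Share of the sequence within 20 kb of any TSS that lies in H3K4me1 regions (x axis, %), as a histogram of all 22350 protein-coding genes (grey bars, number of genes, in steps of 5%) with the 6 genes as red lines. Gbp2 (7.49%) sits near the median of 7.02%, and Irgm1, Irgm2 and Igtp (36.2 to 43.0%) sit in the upper tail. The height of a red line has no meaning.

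The 20 regions were wide at the median. Their widths ran from 200 to 7600 bp with a median of 2800 bp, against 1200 bp over the whole list, and 22.2% of all regions were 2800 bp or wider. The widest, of 7600 bp, lay past the 3′ end of Irgm1 (3.9% of all regions were as wide), and the next, of 6200 bp, lay over the start of Igtp (5.77%). Together the 20 regions covered 57.2 kb. By annotation, 7 of the 20 lay outside annotated genes, against 32.3% of the 65650 regions on chromosomes 1 to 19 and X (the other 59 lay on other sequences). A coding exon of any gene was overlapped by 7 of the 20, 6 of them in 1 of the 6 genes and 1 in Gbp7, against 19.5% of the 65650. The rule picked regions that overlap the 6 genes or lie near their TSS, so overlap with exons is partly fixed by it. Selection by overlap also favours wide regions. All regions are therefore not a like comparison for either width or annotation.

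**Figure D3:**
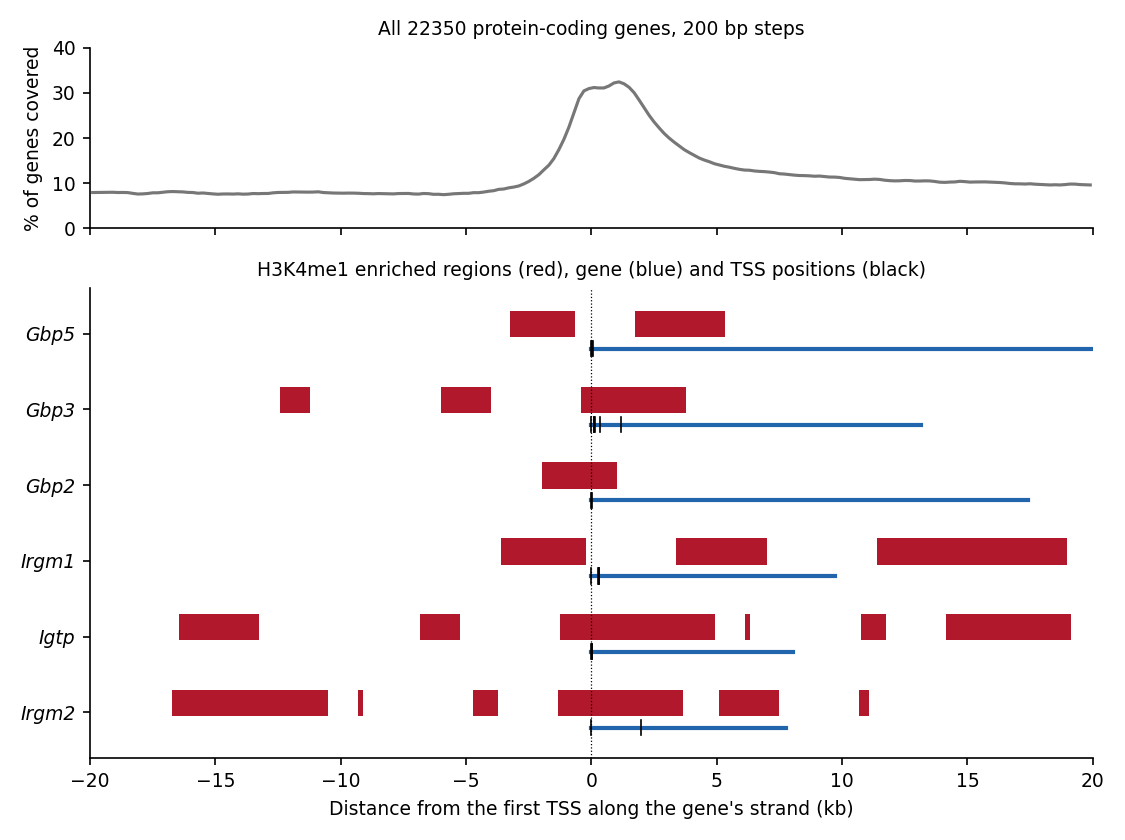
H3K4me1 enriched regions within 20 kb of the most upstream TSS of each gene (red, lower panel), with the gene body in blue, the annotated TSS as black ticks and distance along the gene's strand in kb (x axis). The upper panel gives the percent of 22350 protein-coding genes covered in each 200 bp step, which is 31.0% just before the TSS, 31.2% just after it and at most 32.4%. The TSS at 0 falls in a region for Gbp3, Gbp2, Igtp and Irgm2 and in a gap for Gbp5 and Irgm1.

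Gbp5 (chr3:142159864-142185308, plus strand), whose product promotes inflammasome activation, had its start in a gap of 2.4 kb. One region (chr3:142156601-142159200, 2.6 kb) lay outside annotated genes and ended 664 bp before the TSS. The next (chr3:142161601-142165200, 3.6 kb) began 1737 bp after it and overlapped an untranslated or non-coding exon, an intron and a coding exon of Gbp5. A start without cover but with a region within 2 kb on both sides occurred at 9.9% of protein-coding genes and at 1 of the 6 genes. Both GAS matches, the ISRE core and the NF-kB match of Gbp5 lay in this gap, 453 to 646 bp from the nearest region. No other region lay within 20 kb, and the gap after the second one was 26 kb long.

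Gbp3 (chr3:142223016-142236173, plus strand) had all 6 of its TSS under 1 region (chr3:142222601-142226800, 4.2 kb), which reached from 415 bp before to 3784 bp after the most upstream TSS and took in coding sequence. A pair of further regions lay upstream only. One of 2.0 kb (chr3:142217001-142219000) lay outside annotated genes and ended 4016 bp before the TSS, and one of 1.2 kb (chr3:142210601-142211800) lay in an untranslated or non-coding exon of the neighbouring gene Gbp7. No region began downstream of the one over the start for 58585 bp from the TSS.

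Gbp2 (chr3:142283566-142300972, plus strand) had a single region (chr3:142281601-142284600, 3.0 kb), which covered both TSS and lay mostly upstream, from 1965 bp before to 1034 bp after the first TSS. It overlapped the end of Gbp1, in an untranslated or non-coding exon, as well as an untranslated or non-coding exon and an intron of Gbp2. The nearest other regions were 56766 bp upstream and 67435 bp downstream, which made it the most isolated of the 6 starts.

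Across the Gbp stretch on chromosome 3, from the start of Gbp5 to the end of Gbp2 (141.1 kb), 8 regions covered 20 kb or 14.2%. The regions were unevenly placed. The 3 that belonged to none of the 6 genes lay at Gbp7, 1 of 2.0 kb just upstream of it (chr3:142191201-142193200), 1 of 3.8 kb over coding and untranslated exons and an intron near its start (chr3:142194001-142197800) and 1 of 0.2 kb in an intron (chr3:142199001-142199200). The first TSS of Gbp7 fell in a gap of 0.8 kb between the first pair. Between the region over the start of Gbp3 and that over the start of Gbp2 there was none for 54.8 kb. Of all gaps between neighbouring regions, 13.9% were as long as this or longer, and the median gap was 10.6 kb. The TSS of Gbp1 lies in this gap, 23790 bp from the nearest region. Around Gbp1, 87.3% of 32 bp words taken within 20 kb occurred once in the genome; that stretch lies wholly inside the gap.

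Irgm1 (chr11:48675470-48685185, minus strand) had its 4 TSS in a gap of 3.6 kb. Its product and those of Irgm2 and Igtp (also called Irgm3) are the regulatory Irg proteins, which sit on host membranes and keep the effector Irg proteins inactive there. A region of 3.4 kb outside annotated genes (chr11:48685401-48688800) ended 216 bp upstream of the most upstream TSS and 479 to 532 bp from the other 3. A region of 3.6 kb inside the gene (chr11:48678201-48681800) began 3385 bp downstream of the TSS and took in coding sequence. The third, the widest of the set at 7.6 kb (chr11:48666201-48673800), lay past the 3′ end of Irgm1 over the gene Gm16170. Downstream of the TSS 56.0% of 20 kb was covered and upstream 17.0%. The 2 ISRE cores of Irgm1 lay 449 and 455 bp outside the nearest region.

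Igtp (chr11:58013058-58021093, plus strand) had its 3 TSS under the 6.2 kb region (chr11:58011801-58018000), which ran from 1257 bp before to 4942 bp after the first TSS and took in coding sequence. Irgm2 (chr11:58028530-58036282, plus strand), 15472 bp further on, had both TSS under a region of 5.0 kb (chr11:58027201-58032200), from 1329 bp before to 3670 bp after the first. The 2 regions thus lay alike about their starts. Regions covered 64% of the body of Igtp and 78.3% of the body of Irgm2, more than the 37.1% of Irgm1, the 28.8% of Gbp3, the 14.1% of Gbp5 and the 5.95% of Gbp2. A second region of Irgm2 (chr11:58033601-58036000, 2.4 kb) lay over exon sequence at the end of the gene.

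From the start of Igtp to the end of Irgm2 (23.23 kb), 5 regions covered 13.54 kb or 58.3%, against 14.2% of the Gbp stretch. A region of 1.0 kb outside annotated genes (chr11:58023801-58024800) lay between the 2 genes and 1 of 0.2 kb (chr11:58019201-58019400) lay in an intron of Igtp. Upstream of Igtp were a region of 1.6 kb outside annotated genes (chr11:58006201-58007800) and 1 of 3.2 kb over Gm12250 (chr11:57996601-57999800), annotated as a pseudogene of the same family. A last region of 0.4 kb (chr11:58039201-58039600) followed Irgm2, and the next gap was 74.6 kb long.

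**Figure D4:**
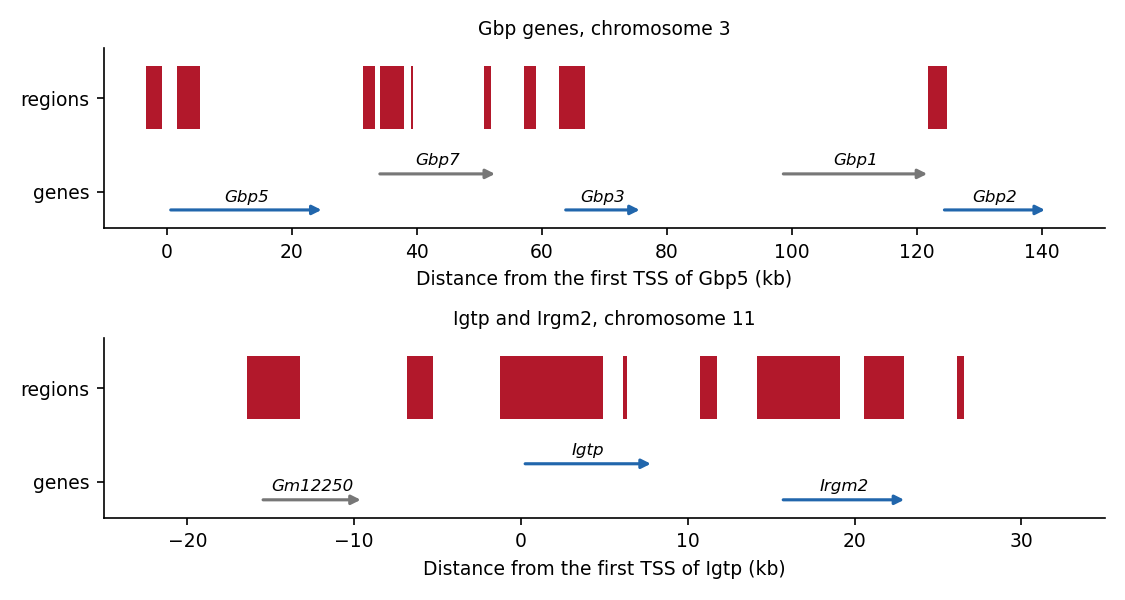
H3K4me1 enriched regions (red) and family genes (arrows in the direction of transcription, blue for the 6 genes and grey for others) across the Gbp stretch and the Igtp to Irgm2 stretch, in kb from the first TSS of Gbp5 and of Igtp. The gap of 54.8 kb between Gbp3 and Gbp2 and the dense cover of Igtp and Irgm2 stand out.

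ISRE cores occurred at 0.332 per kb in the 20 regions and at 0.166 per kb in the 65650 regions on chromosomes 1 to 19 and X. The 19 matches lay in 7 of the 20 regions, and 23.7% of the 65650, which are narrower at the median, held one. GAS matches occurred at 0.35 per kb against 0.332, the NF-kB motif at 0.297 against 0.282 and TATAAA at 0.682 against 0.749 per kb. The family shares copied sequence, so the matches are not independent of each other.

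The wider family gives the setting. Of 29 listed GTPase genes, 11 (37.9%) had a region over a TSS, close to the 39.1% of all protein-coding genes. Of the 23 without the 6 genes, 7 (30.4%) had one: Gbp8, Gbp9, Ifi47, Gm12250, Gm5431, Mx1 and Mx2. The median covered share of the 23 was 5.27%, below the 7.02% of all genes and below that of each of the 6. The highest of the 23 was Gm12250 with 32.8%, followed by the antiviral gene Mx1 with 26.2%. By the rule, no region was found for 7 of the 23, namely Gbp10, Tgtp1, F830016B08Rik, 9930111J21Rik1, 9930111J21Rik2, Gvin1 and Gm4070. A gap of 153.6 kb on chromosome 11 (chr11:48742001-48895600), beyond the 3 regions that follow those of Irgm1 on its upstream side, held the first TSS of 6 family genes. Tgtp1, 9930111J21Rik1 and 9930111J21Rik2 among them had no region, while Tgtp2, Gm12185 and Ifi47 had 1 each.

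The family holds copied sequence, so the share of the surrounding sequence that is unique was set beside the regions. The share of 32 bp words within 20 kb of the first TSS that occurred once in the genome was 1.0 to 66.3% at the 7 genes without a region, with a median of 22.2%, and 32.7 to 96.5% at the 22 with a region, with a median of 79.2%. Of the 13 family genes with at least 75% of unique words, 13 had a region and 7 had 1 over a TSS. Of the 16 with less, 9 had a region and 4 had 1 over a TSS. Over all protein-coding genes these shares were 76.4% and 39.1%. At the 6 genes the share was 79.1% (Gbp5) to 96.5% (Gbp2). Within 2 kb of the TSS it was 100% of 20 words at Gbp5 and Irgm1, the genes whose starts lay in gaps, 95% at Gbp2, 85% at Irgm2 and 80% at Igtp and Gbp3, and the median over all protein-coding genes was 95%. How reads from repeated sequence were treated is not given in the sources used here, and the part of repeated sequence in the regions and gaps was not tested.

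**Figure D5:**
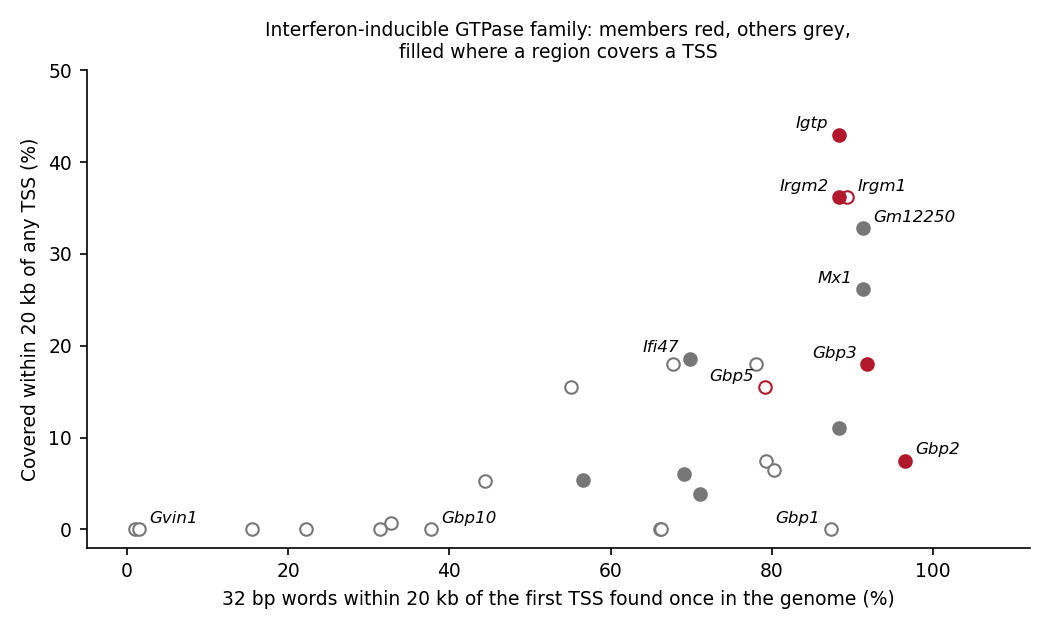
Share of sequence within 20 kb of any TSS covered by regions (y axis, %) against the share of 32 bp words within 20 kb of the first TSS found once in the genome (x axis, %) for 29 family genes, with the 6 genes in red and filled points where a region covers a TSS. The genes at 0% cover include Gbp1, which has 87.3% unique words, and others with 1.0 to 66.3%.

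Other gene lists are given by their counts and medians, beside 39.1% of all protein-coding genes with a region over a TSS and a median covered share of 7.02%. Of 17 genes of IFNγ signalling, 10 had a region over a TSS (median covered share 28.5%), and the others were the receptor and kinase genes Ifngr2, Jak1 and Jak2, the regulators Irf2, Nlrc5 and Ciita, and the inhibitor Socs1. Of 18 antiviral interferon-stimulated genes 11 had one (median 12.4%), with Ifit1, Ifit3, Oas1a, Ddx58, Usp18, Ifitm3 and Trim21 uncovered. Of 12 genes of MHC class I antigen presentation 10 had one (median 40.2%), with B2m and H2-K1 uncovered and no region at all for H2-K1. Among markers of cells in islets, 2 of 8 islet markers had a region over a TSS (Ins2 and Slc2a2), and Ins1, Gcg, Sst, Pdx1, Nkx6-1 and Mafa did not, of which Gcg had no region at all. The median covered share of the 8 was 19.7%. Of 7 leukocyte markers only Cd68 had one, with a median covered share of 0.0% and a range of 0.0 to 31.6%, and Itgam, Emr1 and Cd3e had no region. Of the endothelial markers 2 of 3 had one (not Cdh5, which had no region at all; median 4.0%), and of the exocrine markers 1 of 4 (not Cpa1, Cela1 and Ptf1a; median 6.38%). The part of each cell type in the regions at the 6 genes was not tested.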

How the data were processed

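H3K4me1 ChIP-seq of cytokine-treated islets gave 1 deposited list of 65709 enriched regions (chromosome, start and end, with no score or count). The authors mapped reads with Bowtie2 (version 2.2.1 in the submitters' processing notes) to mm9 and called regions with ChromHMM, whose settings are not given in the sources used here. Replicate immunoprecipitations were pooled and the list holds no counts, so the error of the positions and the depth are unknown. Positions in the deposited list are other than counts and were not rescaled.

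Start positions were converted from BED to 1-based coordinates and compared with GENCODE M1 on mm9 for 22350 protein-coding genes of chromosomes 1 to 19 and X. A TSS was covered if a region overlapped it. The covered share is the part of the sequence within 20 kb of any TSS that lies in regions. Motifs were searched in the mm9 genome, in windows of 250 bp before to 50 bp after the TSS. Uniqueness was read from 32 bp words, at 20 positions within 2 kb and at steps of 100 bp within 20 kb of the first TSS. The software was Python 3.11.15, numpy 2.4.6 and Biopython 1.88. Region lookups were tested with regions planted at annotated TSS, and word counts with repeats planted in random sequence. The motif search was not tested in this way. With 1 library no statistical test was possible. The 6 genes, the gene lists and the motifs were chosen with earlier results of these data known, and the named genes are the 6 genes, the members of these lists and annotated genes that a region overlaps.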

Additional observations from a re-analysis of the deposited data

How the results depend on the processing

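A total of 44 summary values were recomputed under an alternative (window, minimum width, merging, the TSS used, promoter window or word length). Of these, 38 did not move by more than 1.5 times (counts), the 95% binomial interval (shares) or 200 bp (distances), and 6 did. For covered shares this interval treats the 200 bp steps of the window as independent. Neighbouring steps often lie in the same region, so it serves as a tolerance and not as a measure of sampling error. The median number of regions per gene rose from 3 to 7.5 and the median covered share fell from 27.1 to 18.0% with a window of 50 kb in place of 20 kb. The family genes with a region at a TSS rose from 11 to 18 when a region within 1 kb counted, as did the share of all protein-coding genes, from 39.1 to 56.4%. Genes of the 6 with an NF-kB match rose from 1 to 3 with a window from 1000 bp upstream and to 3 with any annotated TSS, where the share of all promoters rose from 8.89 to 20.9% and 16.5%. Those with TATAAA rose from 2 to 4 with the longer window, and the share of all promoters from 13.4 to 46.6%. Genes of the 6 with an ISRE core went from 5 to 6 under both of these settings, and those with GAS stayed at 3. The share of all promoters rose meanwhile, so the contrast narrowed. With the longer window and with any annotated TSS, it went from 3.79 to 14.0% and 7.95% for ISRE cores. For GAS it went from 7.94 to 28.6% and 15.8%. Of 108 values of single genes, 97 did not move and 11 did, all with the window around the TSS. The window of 230 and 20 bp and the alternatives for the Gbp stretch were chosen after seeing the data, and the pairing of motifs was not planned beforehand. No paired analysis was possible because there was 1 library and no test. The distance to the nearest region with only the first TSS was not run, since it is the value reported. With no heights, counts or replicate, neither error nor depth of any region can be given.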
